A study of Mus musculus with 4 samples.

Results

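The genes described here are the axon guidance ligands and receptors on the array, namely Eph receptors, ephrins, semaphorins, plexins, neuropilins, Slits, Robos, netrins, Dcc and Unc5 receptors. They were chosen by gene symbol in the array annotation and comprised 69 of 20402 protein-coding genes, read by 168 probes. The 69 were 14 Eph receptors, 8 ephrins, 7 class 3 semaphorins, 13 semaphorins of classes 4 to 7, 9 plexins, 2 neuropilins, 7 Slits and Robos, and 9 netrins, Dcc and Unc5 genes. RNA of whole C57BL/6 mouse embryos was hybridised to 4 one-colour Agilent arrays, 1 for each group: WT at E8.5, *Dyrk2*-/- at E8.5, WT at E10.5 and *Dyrk2*-/- at E10.5. *Dyrk2* encodes a protein kinase, and the mutant mice carry small deletions made with the CRISPR/Cas9 nickase. Which deletion line and how many embryos stood behind each RNA are not given in the sources used here.

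Growing axons and migrating cells read guidance cues through receptors on their surface. Ephrins are bound to the membrane and signal through Eph receptor tyrosine kinases at cell contacts, secreted class 3 semaphorins act through neuropilins and plexins, and most membrane-bound semaphorins bind plexins directly. Slits repel through Robo receptors, while netrins attract through Dcc and repel through Unc5 receptors. The same molecules also serve outside the nervous system, in blood vessels, neural crest, somites and epithelia, and in mouse the first long axons are laid down between the stages sampled.

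Values are log2 processed signals relative to the 75th percentile of the array, and the probe with the highest mean over the 4 arrays stands for a gene. A member was measured in a comparison when this probe cleared the scanner's well-above-background criterion on 1 or both of the arrays compared, and was called changed at 1.5-fold or more. No group had a replicate, so no difference at a stage has a test. Repeated spots of a probe had a median SD of 0.09 (WT) and 0.12 (*Dyrk2*-/-) for the E8.5 arrays and 0.07 and 0.08 for the E10.5 arrays. Of 56605 probes, 31370 and 30226 were well above background at E8.5, then 31818 and 31943 at E10.5. Over 28622 probes the arrays of both genotypes had a Pearson correlation across probes, which are not independent replicates, of 0.993 (E8.5) and 0.996 (E10.5), and those of both stages 0.964 in WT and 0.972 in *Dyrk2*-/-.

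The *Dyrk2* transcript did not check the genotype labels. Its brightest probe read 0.06 on the WT array and 0.76 on the array labelled *Dyrk2*-/- at E8.5, then −0.31 and 0.34 at E10.5, so that the mutant label went with more signal, by 1.62-fold and 1.57-fold. These ratios were 0.44 and 0.52 (log2) without scaling, both within 1.5-fold, and 0.15 and 0.81 with spike-in scaling. Its other probe read −0.23, −0.20, −0.28 and −0.00 in the same order. A small deletion need not lower the transcript, and every direction between genotypes below rests on the labels. The arrays labelled *Dyrk2*-/- are called KO-labelled arrays. One array stood apart in sex chromosome transcripts. *Xist* read −0.37 on the KO-labelled E10.5 array and was not well above background on the other 3, while the Y-linked *Uty*, *Kdm5d*, *Eif2s3y* and *Ddx3y* showed the reverse. Being alone in its group, this array cannot be left out of a comparison at E10.5 or of a change with stage on KO-labelled arrays. The limma fit given below uses it too, while the comparison at E8.5 does not. At E10.5 the difference in sex chromosome transcripts goes with the genotype label, so they cannot be told apart for any gene, X-linked or not. Only 3 members, *Efnb1*, *Plxna3* and *Plxnb3*, lie on the X chromosome, and none of them was among the members called changed between genotypes, although *Plxnb3* passed 1.5-fold lower at E8.5 after quantile normalization, without scaling and with spike-in scaling.

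Of the 69 members, 63 were well above background on all 4 arrays and 65 on at least 1. *Epha6*, *Epha10*, *Ntn4* and *Unc5d* were well above background on no array, and *Plxnb3* and *Ntn5* on some. Between genotypes few members moved. At E8.5, 3 of 64 measured members were higher on the KO-labelled array by 1.5-fold or more, beside 3.95% of 14582 protein-coding genes, and 4 were lower, beside 4.94%. These shares are near the background. The split of 3 higher and 4 lower depended on scaling: it was 2 and 5 after quantile normalization, 1 and 11 without scaling, 0 and 26 with spike-in scaling and 0 and 2 after normexp background correction, and 5 and 4 for members named through RefSeq accessions. At E10.5, 0 of 64 were higher, beside 2.36% of 14849 genes, and 2 were lower, beside 3.71%. That split was 0 and 2 also with quantile, spike-in and normexp processing, and 0 and 3 without scaling. Leaving out the scaling moved the median ratio of all probes from −0.01 to −0.26 (KO-labelled to WT, E8.5), from 0.01 to −0.12 (E10.5), from −0.08 to 0.10 (WT, between stages) and from −0.06 to 0.25 (KO-labelled, between stages), and spike-in scaling moved it to −0.55, 0.17, −0.15 and 0.58.

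Between stages far more members moved. In WT, 24 of 65 measured members rose from E8.5 to E10.5, beside 19% of 15142 genes, and 9 fell, beside 18.2%. On the KO-labelled arrays 17 of 64 rose, beside 16.6% of 14950 genes, and 11 fell, beside 14.3%. This second split moved to 23 and 9 without scaling and to 37 and 6 with spike-in scaling. In limma, fitted over the 32289 probes that passed the background criterion on 2 or more arrays, 23 of 64 tested members were called higher at E10.5 over both genotypes, beside 18.9% of 14817 genes, and 14 lower, beside 23.6%. The limma split was 33 and 9 without scaling and 6 and 2 with spike-in scaling. For genotype over both stages limma called 0 of 64 members higher, beside 0.0202% of the same genes, and 0 lower, beside 0%. Without scaling this split was 0 and 3, and without a filter on dim probes 0 and 2. An unadjusted p under 0.05 in limma was found for 7 members, or 10.9%, beside 4.93% of the 32289 probes. For members 1 probe stands for a gene, while the 32289 hold every probe fitted, so these shares are of unlike units. The fit had 1 residual degree of freedom, which is the difference between genotypes in the change from E8.5 to E10.5.

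*Ephb2*, a receptor for B-type ephrins that acts in axon pathfinding at the midline, had the largest genotype estimate in limma and the largest genotype ratio at E10.5 by brightest probes. Its brightest probe, at chr4:136209527-136209586 (mm9, minus strand), read 2.96 on the WT and 2.29 on the KO-labelled array at E8.5, then 3.17 and 1.67 at E10.5. It was therefore lower on the KO-labelled array at both stages, 1.60-fold at E8.5 and 2.83-fold at E10.5, and the KO-labelled E10.5 array was the lowest of the 4. The limma estimate over both stages was −1.09 with SE 0.18 and an adjusted p of 0.161, which misses the threshold. A second probe of the gene, at chr4:136211203-136211262 on the same strand, did not share this pattern, with −1.43 (WT) and −1.19 (KO-labelled) for E8.5 and −1.14 and −1.33 for E10.5. Over the mean of both probes *Ephb2* was within 1.5-fold at E8.5 and past it at E10.5. The genotype difference of *Ephb2* thus rests on 1 of 2 probes. Bases 1 to 30 of both probes are printed because the gene reads differently through them, the first belonging to the probe with the genotype difference.
Ephb2 first probe: cagggaatccgagcagaacaatcggttagt
Ephb2 second probe: accagatccagtctgtagaggtttgacatt

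Of the 12 Eph receptors measured, *Epha1* was the other one past 1.5-fold between genotypes by its brightest probe. At E8.5 there were 2 lower in the class, or 4 without scaling and 7 with spike-in scaling. *Epha1*, the founding member of the family, read 2.04 and 1.39 on the WT and KO-labelled arrays at E8.5, then −0.32 and −0.36 at E10.5. It was 1.57-fold lower on the KO-labelled array at E8.5, with nearly equal values at E10.5, and its second probe differed by −0.57 at E8.5. *Epha1* also had the largest fall with stage among Eph receptors, 5.14-fold in WT and 3.36-fold on the KO-labelled arrays, with a limma stage estimate of −2.05, SE 0.17 and adjusted p 2.76e-05.

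With stage 3 of 12 Eph receptors rose and 4 fell in WT, or 4 and 4 without scaling and 2 and 4 with spike-in scaling. After normexp correction 1 rose and 4 fell in WT. On the KO-labelled arrays 0 rose and 5 fell, or 3 and 4 without scaling, which spike-in scaling turned to 4 and 3. *Epha2*, present in the gastrulating embryo, fell from 1.97 to 0.57 in WT and from 1.93 to 0.44 on the KO-labelled arrays, and *Epha5*, a receptor of forebrain projections, from 0.13 to −1.32 and from −0.30 to −1.67. The falls were 2.64-fold and 2.81-fold for *Epha2* and 2.73-fold and 2.60-fold for *Epha5*, with adjusted p 4.56e-05 and 0.000129 for stage in limma. All 4 measured probes of *Epha5* were lower at E10.5 in both genotypes. *Epha8* went the other way, from −1.51 to −0.24 in WT, a rise of 2.41-fold, and from −1.06 to −0.59 on the KO-labelled arrays.

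*Epha3*, a receptor found on motor neurons of the medial column, gave a different picture by probe. Its brightest probe by mean, annotated to an older mRNA record, read −3.51, −2.94, −2.77 and −2.66 on the WT E8.5, KO-labelled E8.5, WT E10.5 and KO-labelled E10.5 arrays, a rise of 1.66-fold in WT. A probe for the RefSeq mRNA, at chr16:63545155-63545214 (mm9), was not well above background at E8.5 and read 0.35 in WT and −0.63 on the KO-labelled array at E10.5. Taken against the lowest signal well above background, that is a rise of at least 36.0-fold in WT and at least 14.8-fold on the KO-labelled arrays, and another RefSeq probe gave at least 18.3-fold and 12.1-fold. The first RefSeq probe was 1.98-fold lower on the KO-labelled array at E10.5, while the other RefSeq probe was 1.23-fold lower.

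In the B group, *Ephb6*, whose kinase domain is inactive, rose 1.52-fold in WT, from 0.03 to 0.64, and read 0.10 and 0.41 on the KO-labelled arrays. With spike-in scaling its WT rise was within 1.5-fold. The remaining 5 Eph receptors measured, *Ephb1* among them, were read by their brightest probes. Their genotype ratios lay between −0.38 and 0.20 at E8.5 and between −0.38 and −0.12 at E10.5. Their stage ratios ran from −1.12 to 0.51 in WT. Of 3 *Ephb4* probes, 1 that was not the brightest was past 1.5-fold higher on the KO-labelled array at E8.5, with a ratio of 0.91. In limma 3 Eph receptors were called higher and 4 lower at E10.5. Over the class, 11 of 12 were below 0 in the ratio of KO-labelled to WT array at E10.5, beside 54.2% of 14849 genes. With spike-in scaling 6 were, beside 21.9%.

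Ephrins, the ligands of the Eph receptors, were within 1.5-fold between genotypes by their brightest probes. All 8 were well above background on the 4 arrays, and their ratios lay between −0.02 and 0.25 at E8.5 and between −0.25 and 0.03 at E10.5, with 0 of 8 past 1.5-fold also without scaling and with spike-in scaling. With stage 2 rose and 2 fell in WT under each of these scalings, and on the KO-labelled arrays 1 rose and 2 fell, or 3 and 0 with spike-in scaling. *Efna2*, a ligand anchored to the membrane by a lipid, rose from 0.40 to 1.69 in WT and from 0.51 to 1.58 on the KO-labelled arrays, by 2.45-fold in WT and by 1.07 (log2) on the KO-labelled arrays. *Efnb3*, a transmembrane ephrin of the spinal cord midline, rose 1.69-fold in WT, from 2.22 to 2.98, and read 2.48 and 2.84 on the KO-labelled arrays.

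The ephrin falls came from the A group. *Efna1*, the ligand first found for *Epha2*, read 2.36 on both arrays at E8.5 and 1.41 on both at E10.5, a fall of 1.93-fold in each genotype with adjusted p 0.000443 for stage in limma. Ligand and receptor thus both fell with stage. *Efna3* fell from −1.03 to −1.95 in WT and from −1.05 to −2.20 on the KO-labelled arrays. One of its 2 RefSeq probes did not fall in WT, with −2.60 at E8.5, then −2.56 at E10.5, and the other went from −4.13 to below the background criterion, at least 1.36-fold. The first of these was 1.59-fold higher on the KO-labelled array at E8.5, unlike the brightest probe. The size of the fall of *Efna3* in WT thus depends on the probe. *Efna4* moved little, from 1.07 to 1.01 in WT, as did the X-linked *Efnb1*, from 3.64 to 3.93.

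*Sema3e* had the largest fall with stage by brightest probes, among members well above background at both stages. This secreted semaphorin, unlike others of its class, binds Plxnd1 without a neuropilin and repels vessels from somites. It read 0.16 on the WT and −0.53 on the KO-labelled array at E8.5, then −2.80 and −2.43 at E10.5, so that it was 1.61-fold lower on the KO-labelled array at E8.5 and 1.29-fold higher at E10.5. The E8.5 ratio was within 1.5-fold after normexp correction and over probe means. The fall with stage was 7.78-fold in WT and 3.73-fold on the KO-labelled arrays, and limma gave −2.43, SE 0.24 and adjusted p 8.64e-05. Its receptor moved the other way with stage. *Plxnd1*, a plexin of endothelial cells, read 2.55 and 2.89 at E8.5, then 3.78 and 3.81 at E10.5, a rise of 2.35-fold in WT and 1.89-fold on the KO-labelled arrays with adjusted p 0.000268.

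Of the 7 class 3 semaphorins, 3 rose and 1 fell with stage in WT and 2 rose and 1 fell on the KO-labelled arrays, while spike-in scaling gave 2 and 1 in WT and 4 and 1 there. *Sema3d* read −0.90 and −1.10 on the WT and KO-labelled arrays at E8.5, then 0.22 and 0.40 at E10.5, a rise of 2.18-fold and 2.81-fold. *Sema3c*, which draws cardiac neural crest to the outflow tract, rose from −0.29 to 0.49 in WT, by 1.72-fold, and from −0.17 to 0.48 on the KO-labelled arrays. *Sema3g*, a product of arterial endothelium, rose 1.57-fold in WT, from 0.28 to 0.93, and read 0.63 and 0.70 on the KO-labelled arrays. With spike-in scaling the WT rise of *Sema3g* was within 1.5-fold. *Sema3a* and *Sema3b* were within 1.5-fold, *Sema3a* from 0.10 to −0.06 and *Sema3b* from −0.14 to −0.46 in WT by their brightest probes. Other probes of *Sema3a* rose with stage: one from −0.98 to −0.34 in WT, by 1.55-fold, with a ratio of 0.16 on the KO-labelled arrays, and one, below the criterion at E8.5, by at least 2.52-fold in WT and 1.91-fold on the KO-labelled arrays. *Sema3b* was the member of the class with the largest limma genotype estimate, 0.40 with SE 0.14 and adjusted p 0.873, and was higher on the KO-labelled array by 0.45 (E8.5) and 0.36 (E10.5), though the E8.5 ratio turned to −0.10 with spike-in scaling.

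Neuropilins are the binding partners of class 3 semaphorins, and Nrp1 is also a co-receptor for VEGF. *Nrp1* read 3.33 and 3.19 at E8.5, then 2.87 and 2.85 at E10.5, and *Nrp2* 6.39, 6.64, 6.11 and 6.08 in the same order. By their brightest probes, scaled to the 75th percentile, both were within 1.5-fold in every comparison and both were lower at E10.5 in limma, with adjusted p 0.0269 and 0.0252, although with spike-in scaling the KO-labelled ratio of both turned above 0 and *Nrp1* was 1.61-fold lower on the KO-labelled array at E8.5. The brightest *Nrp2* probe holds a run of GT repeats, described below, and a second probe gave stage ratios of −0.21 in WT and −0.49 on the KO-labelled arrays. Of 7 *Nrp1* probes, 2 were past 1.5-fold lower with stage in WT and 2 on the KO-labelled arrays. Between genotypes at E10.5, 1 of the 7 was past 1.5-fold higher on the KO-labelled array.

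Among the membrane-bound semaphorins of classes 4 to 7, 7 of 13 rose and 1 fell with stage in WT, and 5 rose and 2 fell on the KO-labelled arrays, or 8 and 2 there with spike-in scaling. *Sema6c*, of the class that binds A-type plexins, rose from −0.07 to 1.86 in WT, by 3.81-fold, and by 2.72-fold on the KO-labelled arrays. *Sema7a*, which is anchored by a lipid and binds Plxnc1, rose from −1.27 to 0.28 in WT and from −1.12 to −0.13 on the KO-labelled arrays. *Plxnc1* itself read −0.83 and −1.22 in WT and −1.18 and −1.06 on the KO-labelled arrays, within 1.5-fold by its brightest probe. A second *Plxnc1* probe was past 1.5-fold lower at E10.5 in both genotypes.

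*Sema6b* had the highest ratio of KO-labelled to WT array at E8.5 among measured members. It read −3.50 on the WT and −2.65 on the KO-labelled array at E8.5, then −2.11 and −2.48 at E10.5, so that the KO-labelled array was 1.79-fold above WT at E8.5 but 1.29-fold below it at E10.5. It rose 2.61-fold with stage in WT, while the KO-labelled arrays differed 1.13-fold. Semaphorins of this class are transmembrane ligands. With spike-in scaling and after normexp background correction the E8.5 ratio of *Sema6b* was within 1.5-fold.

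*Sema4d*, a ligand of Plxnb1, fell from 1.31 to 0.21 in WT, by 2.14-fold, and by 2.57-fold on the KO-labelled arrays, though the mean over its probes gave 0.01 (log2) there. *Sema4f* read −2.65 and −3.12 in WT, within 1.5-fold, and fell 2.70-fold on the KO-labelled arrays, from −2.24 to −3.67. *Sema4b* went from −1.44 to −1.98 in WT, also within 1.5-fold. The remaining 7 semaphorins of these classes were read by their brightest probes. Their genotype ratios lay between −0.52 and 0.54 at E8.5 and between −0.38 and −0.09 at E10.5. Their stage ratios in WT ran from −0.45 to 1.15. By brightest probes, 12 of 13 had a ratio of KO-labelled to WT array below 0 at E10.5, beside 54.2% of 14849 genes. With spike-in scaling 9 of 13 did so, beside 21.9%. Another probe was past 1.5-fold on the KO-labelled array at E10.5, higher for *Sema4g* and *Sema5a* and lower for *Sema4d*, *Sema6a* and *Sema6d*. At E8.5 another probe was past it for *Sema6d* (higher) and *Sema6a* (lower).

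Plexins are the receptors of most semaphorins. With stage 1 of 9 rose and 1 fell in WT, or 4 and 1 without scaling, and 1 of 8 rose and 0 fell on the KO-labelled arrays, where 6 rose with spike-in scaling. The plexin that rose in both genotypes was *Plxnd1*. *Plxna4*, a co-receptor for Sema3a and a receptor for class 6 semaphorins, read −0.11 on the WT and 0.50 on the KO-labelled array at E8.5, then 0.43 and 0.22 at E10.5. It was thus 1.53-fold higher on the KO-labelled array at E8.5, but within 1.5-fold without scaling, with spike-in scaling and after normexp correction, and 1.15-fold lower at E10.5. *Plxnb3* was well above background on the WT E8.5 array alone, at −3.69, so that its fall in WT is a bound, at least 2.04-fold. *Plxna3* went from 1.01 to 1.53 in WT, within 1.5-fold, and the remaining 4 plexins lay between −0.34 and 0.26 for genotype at E8.5 and between −0.20 and −0.03 at E10.5.

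*Robo3* was, beside *Ephb2*, the member past 1.5-fold lower on the KO-labelled array at both stages. This receptor is known from commissural neurons, whose axons need it to cross the midline. It read −0.75 on the WT and −1.41 on the KO-labelled array at E8.5, then 2.53 and 1.59 at E10.5. The ratio of KO-labelled to WT array was −0.66 at E8.5, then −0.95 at E10.5, that is 1.58-fold and 1.93-fold lower, and after normexp correction the E8.5 ratio was within 1.5-fold. The limma genotype estimate was −0.80 with SE 0.14 and adjusted p 0.175, which misses the threshold. A second *Robo3* probe was not well above background at E8.5 and read −2.28 in WT and −3.75 on the KO-labelled array at E10.5, a difference of −1.47 in the same direction. By its brightest probe *Robo3* rose 9.77-fold with stage in WT and 7.99-fold on the KO-labelled arrays, with adjusted p 1.06e-06. This was the largest rise among members well above background at both stages. The rise of *Ntn5*, given below, is a bound and was not ranked.

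*Robo4*, a receptor of endothelial cells, rose almost as far. It read −0.92 and −0.49 at E8.5, then 2.15 and 1.94 at E10.5, a rise of 8.36-fold in WT and 5.40-fold on the KO-labelled arrays with adjusted p 5.22e-06. Its probe, at chr9:37221537-37221596 on the plus strand, lies 2.16 kb from that of *Robo3*, at chr9:37223760-37223819 on the minus strand (both mm9). The neighbours rose together with stage and differed in sign between genotypes at E8.5, where *Robo4* was 0.43 higher on the KO-labelled array, but −0.12 with spike-in scaling, which left both below 0.

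*Robo1* and *Robo2*, which carry repulsion by Slits, were within 1.5-fold with stage by their brightest probes. *Robo1* read 2.65, 2.59, 2.78 and 2.64, and *Robo2* −0.43, −0.68, −0.37 and −0.59 on the WT E8.5, KO-labelled E8.5, WT E10.5 and KO-labelled E10.5 arrays. Other *Robo2* probes disagreed with each other in WT: one rose from −2.71 to −2.02 and another fell from −2.46 to −3.19. For *Robo1*, 1 of 4 measured probes was past 1.5-fold higher with stage in WT. At E10.5, 2 of 4 *Robo1* probes were past 1.5-fold lower on the KO-labelled array. Among the ligands, *Slit2* rose from 0.32 to 1.79 in WT and from 0.09 to 1.39 on the KO-labelled arrays, by 2.77-fold and 2.46-fold, and *Slit1* rose from 0.09 to 1.35 in WT, with a ratio of 0.72 on the KO-labelled arrays. *Slit3* stayed at −0.44 in WT at both stages. By brightest probes, all 7 Slit and Robo genes had a ratio of KO-labelled to WT array below 0 at E10.5, beside 54.2% of 14849 genes. With spike-in scaling 5 of 7 did so, beside 21.9%. Some other probes of *Robo1*, *Robo2* and *Slit2* were above 0 at E10.5.

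In the netrin system 4 of 7 measured genes rose and 0 fell with stage in WT, or 5 and 0 without scaling and 4 and 1 with spike-in scaling. On the KO-labelled arrays 4 rose and 1 fell, or 6 and 0 with spike-in scaling. *Ntn5* was not well above background at E8.5 and read −1.83 in WT and −1.80 on the KO-labelled array at E10.5, a rise of at least 7.04-fold and at least 5.90-fold. *Ntn3* rose 2.37-fold and 2.59-fold, from −1.09 to 0.15 in WT and from −1.29 to 0.08 on the KO-labelled arrays. *Unc5c* rose 2.11-fold in WT and 1.57-fold on the KO-labelled arrays by its brightest probe. *Ntn1*, made by the floor plate, had stage ratios of 0.52 in WT and 0.03 on the KO-labelled arrays, within 1.5-fold. *Unc5a*, a repulsive netrin receptor of neurons, read −1.37 on the WT and −0.77 on the KO-labelled array at E8.5, then 0.93 and 0.69 at E10.5. It rose 4.92-fold in WT and 2.75-fold on the KO-labelled arrays and was 1.51-fold higher on the KO-labelled array at E8.5, just past the threshold and within it after quantile normalization, without scaling, with spike-in scaling and after normexp correction. *Unc5b*, a receptor also found on endothelial cells, fell from 3.30 to 2.71 on the KO-labelled arrays, a ratio of −0.59 that turned to 0.05 with spike-in scaling, and had a ratio of −0.57 in WT, within 1.5-fold. Another *Unc5b* probe passed 1.5-fold lower with stage in WT, and between genotypes on the KO-labelled array at E8.5.

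*Dcc*, the attractive netrin receptor, read differently through its brightest probe, which the counts above use, than through its other probes. The brightest probe read 5.04, 4.56, 5.08 and 4.98 on the WT E8.5, KO-labelled E8.5, WT E10.5 and KO-labelled E10.5 arrays, and the array annotation places it on another chromosome than the other *Dcc* probes, at chr7:68417162-68417221 (mm9, minus strand). A probe at the gene itself read −4.32 and −4.12 at E8.5, then −0.99 and −1.34 at E10.5, a rise of 10.1-fold in WT and 6.86-fold on the KO-labelled arrays. The other 4 *Dcc* probes were not well above background at E8.5 on either array and were so at E10.5 on the WT array.

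The probe that stood for *Dcc* consists largely of a simple repeat, and 3 more brightest probes of members hold one. Tandem repeats of units of up to 3 bases over 18 bases or more occurred in 4 of 168 member probes, or 2.38%, and in 160 of 56604 probes with a sequence, or 0.283%. They are printed because short repeats of this kind occur at many places in a genome, and whether the probes read the named genes was not tested. Stretches of 30 bases follow, with the repeat in capitals, from mm9 positions chr7:68417162-68417221 (minus strand) for *Dcc*, chr16:21223165-21223224 (plus strand) for *Ephb3*, chr1:62843061-62843120 (plus strand) for *Nrp2* and chr1:36605998-36606057 (minus strand) for *Sema4c*.
Dcc: aaagatGAAGAAGAAGAAGAAGAAGAAGAA
Ephb3: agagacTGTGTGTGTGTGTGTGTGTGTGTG
Nrp2: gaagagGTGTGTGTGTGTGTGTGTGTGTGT
Sema4c: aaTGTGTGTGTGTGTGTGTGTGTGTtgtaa
Scaled to the 75th percentile, none of these 4 probes differed by 1.5-fold in any of the comparisons, but at E8.5 the *Dcc* probe was lower on the KO-labelled array by 1.67-fold without scaling and 2.04-fold with spike-in scaling, and the *Ephb3* probe by 1.56-fold with spike-in scaling. Between stages the *Dcc* probe passed 1.5-fold higher on the KO-labelled arrays without scaling and with spike-in scaling. A second *Sema4c* probe had stage ratios of −0.09 in WT and −0.44 on the KO-labelled arrays, and it too was within 1.5-fold throughout.

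**Figure D1:**
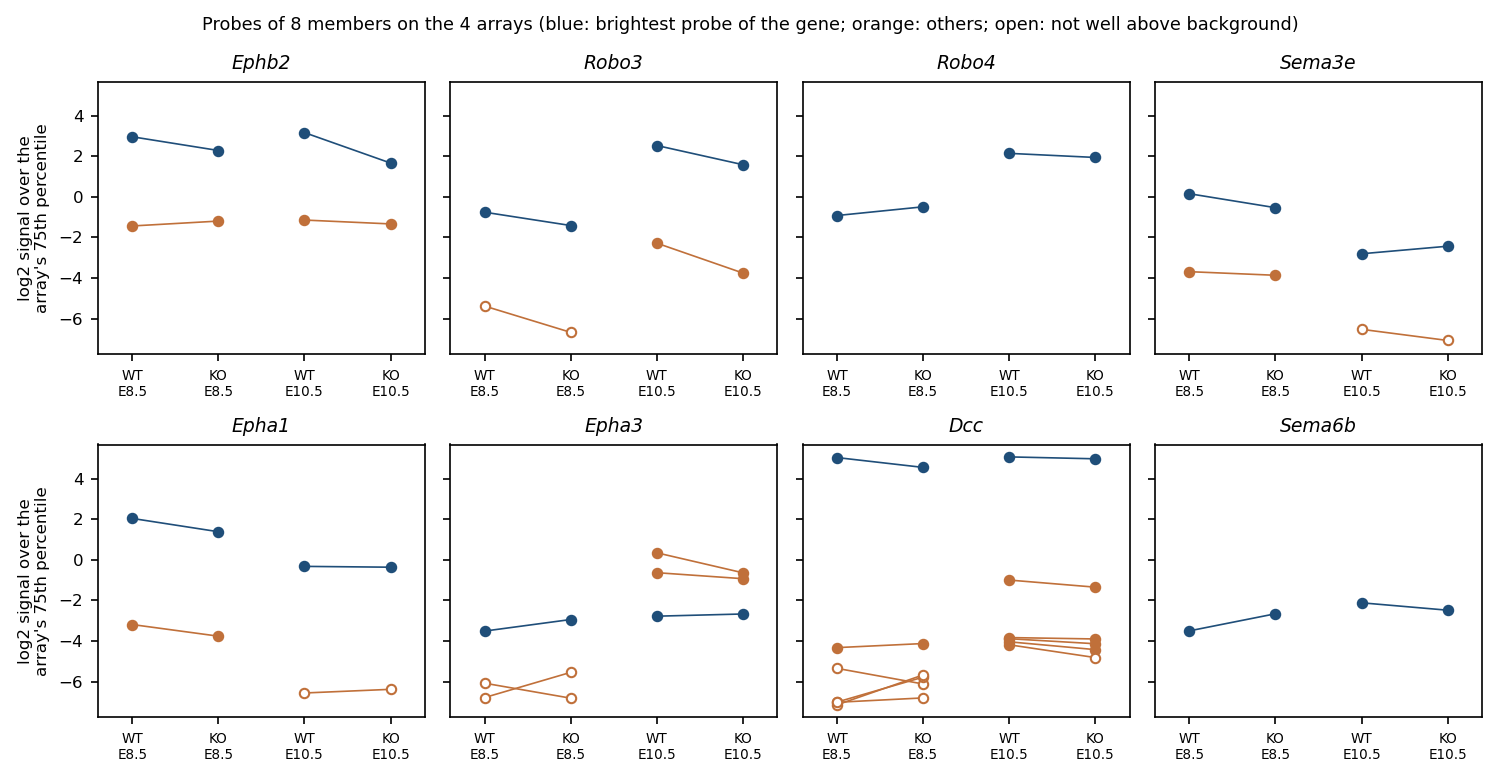
Log2 signal over the 75th percentile of the array for the probes of 8 members on the 4 arrays, 1 array per group; lines join the WT and KO-labelled (KO) array of a stage, blue marks the brightest probe of the gene, orange its others that passed the background criterion on any array, and open circles a probe not well above background. The bright *Ephb2* probe falls from 3.17 to 1.67 at E10.5 while the other stays near −1.14 and −1.33, and probes of *Epha3* and *Dcc* part between E8.5 and E10.5.

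How the genotype ratios of the 2 stages paired depended on the scaling. Of 63 members measured at both stages, 31 were above 0 at E8.5 and below 0 at E10.5, 23 were below 0 at both, 5 were above 0 at both, and 4 were below 0 and then above 0. Both stages had the same direction in 44.4% of members and 47.8% of genes. In the same order these counts were 15, 44, 1 and 3 without scaling and 3, 26, 1 and 33 with spike-in scaling. The shares of protein-coding genes in this order were 25.7%, 27.8%, 20% and 26.5%. They were 11.6%, 70.8%, 3.08% and 14.6% without scaling and 1.57%, 18.4%, 2.66% and 77.4% with spike-in scaling. The median ratio of KO-labelled to WT array was 0.03 at E8.5, then −0.13 at E10.5, beside −0.03 and −0.02 over protein-coding genes. At E10.5, 54 of 64 members were below 0, beside 54.2% of genes, but 29 of 64 with spike-in scaling, beside 21.9%. Spike-in scaling moved the median of all probes from 0.01 to 0.17. The ratios at the 2 stages, which share no array, had a Pearson correlation of 0.15 across the 63 members and 0.07 across 14111 genes, which are not independent replicates. Past 1.5-fold at both stages were 2 members, *Ephb2* and *Robo3*, both lower, beside 71 of 14111 genes lower and 63 higher at both, although at E8.5 *Ephb2* was within 1.5-fold over probe means and *Robo3* after normexp correction.

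**Figure D2:**
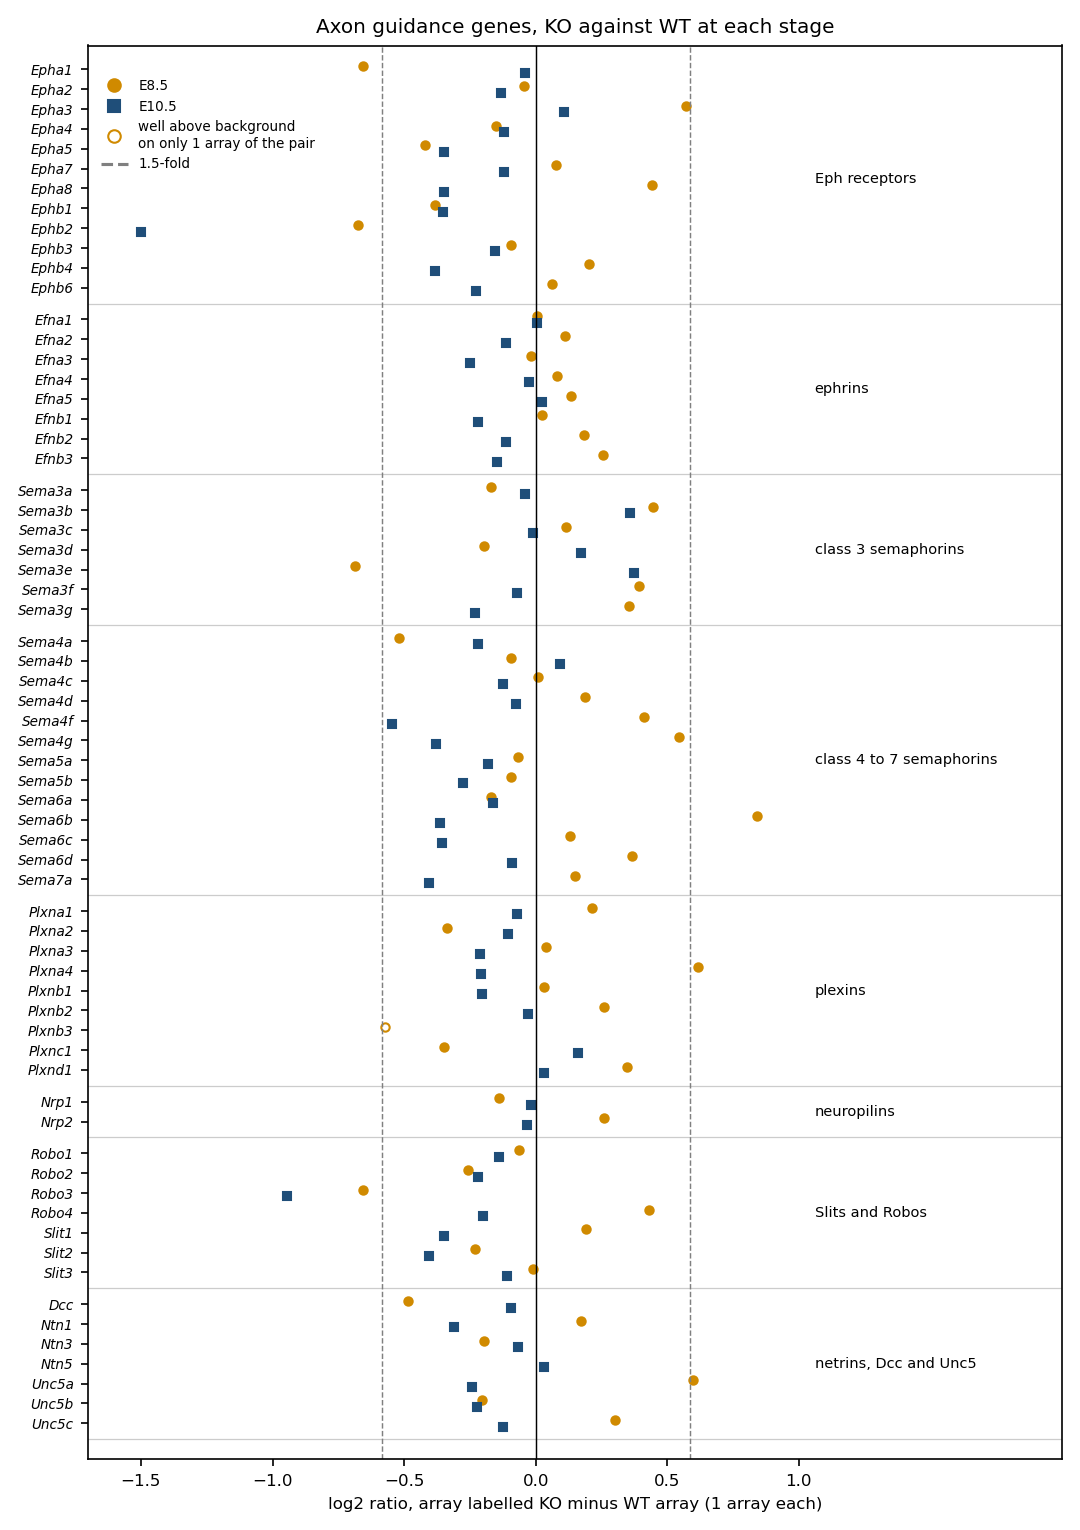
Log2 ratio of the KO-labelled to the WT array for each measured member, by class, at E8.5 (circles) and E10.5 (squares), 1 array per group; dashed lines mark 1.5-fold and the open circle a gene that passed the background criterion on 1 of the arrays compared. *Ephb2* (1.60-fold and 2.83-fold lower) and *Robo3* (1.58-fold and 1.93-fold lower) lie past the left line at both stages, and at E10.5 most squares lie left of 0, which is not so with spike-in scaling (29 of 64).

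The change with stage, in contrast, ran alike in both genotypes. Over 64 members the stage ratios in WT and on the KO-labelled arrays, which share no array, had a Pearson correlation of 0.94, beside 0.90 over 14772 genes. The sign was the same in 56 of 64, or 87.5%, beside 82.6% of genes. Of these, 17 rose and 8 fell past 1.5-fold in both genotypes, that is 26.6% and 12.5% of the 64, beside 13.5% and 10.8% of genes. The ratio was larger in WT than on the KO-labelled arrays for 47 of 64 members, or 73.4%, beside 48.7% of genes. The median stage ratio of members was 0.22 in WT and 0.08 on the KO-labelled arrays, beside −0.10 and −0.07 over protein-coding genes. With spike-in scaling the members' medians were 0.15 and 0.72, so that their order turned.

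**Figure D3:**
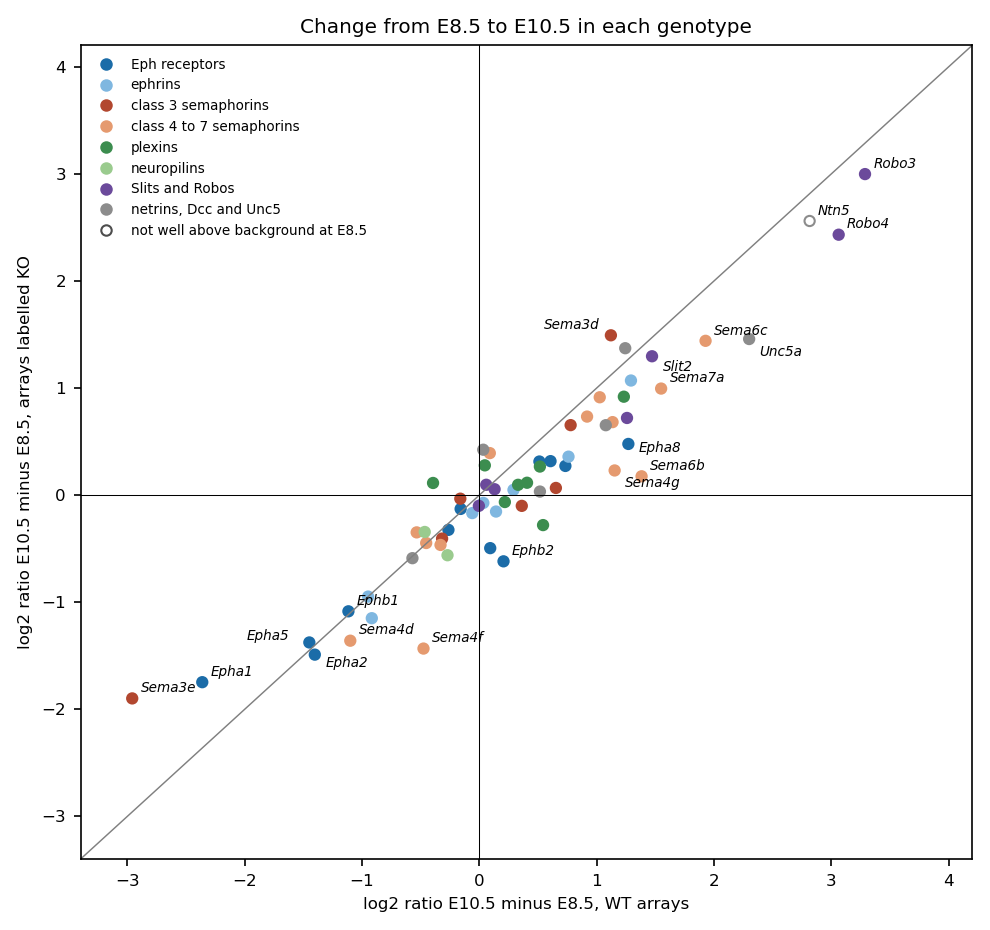
Log2 ratio of E10.5 to E8.5 for 64 members, on the WT arrays (x axis) and the KO-labelled arrays (y axis), 1 array per group, coloured by class; the line marks equal ratios and the open circle a gene not well above background at E8.5. *Robo3*, *Robo4* and *Ntn5* lie at the upper right and *Sema3e* and *Epha1* at the lower left, and 47 of 64 members lie below the line, an order that depends on the scaling between arrays.

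Members with several probes gave a check within the array. Between stages all measured probes of a member moved the same way for 30 of 37 members in WT and 26 of 36 on the KO-labelled arrays. Between genotypes this held for 17 of 32 members at E8.5 and 15 of 35 at E10.5, where most ratios were small. Opposite changes past 1.5-fold occurred in 1 member, *Robo2* in WT. The brightest probe was within 1.5-fold while another probe was past it for 9 members between stages in WT and 9 on the KO-labelled arrays, and for 8 between genotypes at E8.5, then 10 at E10.5.

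Co-receptors, other cues and cytoplasmic effectors of guidance formed a list of 81 genes, of which *Dscaml1*, *Cntn4* and *Ntng2* were not well above background on any array. At E8.5, 1 of 76 measured was higher and 3 lower on the KO-labelled array, beside 3.95% and 4.94% of protein-coding genes. This split was 0 and 11 without scaling and 0 and 40 with spike-in scaling. At E10.5, 0 of 78 were higher and 7 lower, beside 2.36% and 3.71%. That split was 0 and 12 without scaling, 0 and 1 with spike-in scaling and 0 and 2 after normexp correction. The neural adhesion molecule *Chl1* was lower at both stages, with −2.86 in WT and not well above background on the KO-labelled array at E8.5, at least 3.17-fold, and −0.83 and −1.45 at E10.5. *Ntng1*, a netrin relative anchored to axons, was lower at both stages too, with −0.83 and −1.76 at E8.5, then −0.12 and −0.81 at E10.5. The other large genotype ratios were those of *Elmo1* (−0.69) and *Ablim1* (0.67) at E8.5 and of *Dpysl3* (−0.76), *Ablim3* (−0.70) and *Cntn2* (−0.70) at E10.5.

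With stage, 30 of 78 genes of that list rose and 7 fell in WT, beside 19% and 18.2% of protein-coding genes. On the KO-labelled arrays 19 of 77 rose and 4 fell, beside 16.6% and 14.3%. There the split was 32 and 2 without scaling and 50 and 2 with spike-in scaling. *Cntn2*, an adhesion molecule of commissural axons, rose 56.8-fold in WT, and *Cntn1* and *Trim9* rose 13.0-fold and 8.15-fold. On the KO-labelled arrays the largest ratios were at least 30.3-fold for *Cntn2*, at least 3.25 (log2) for *Cntn1* and at least 8.41-fold for *Chl1*.

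Markers of cell types were read on the same arrays. Neuron markers rose with stage in 15 of 16 genes in WT, beside 19% of protein-coding genes. On the KO-labelled arrays 16 of 16 rose, beside 16.6%. At E10.5, 6 of 16 were past 1.5-fold lower on the KO-labelled array, beside 3.71% of genes. This count was 8 after quantile normalization, 11 without scaling and 2 with spike-in scaling. Below 0 were 15 of 16 with and without either scaling. Of genes, 54.2% were below 0, or 81.9% without scaling and 21.9% with spike-in scaling. *Dcx* and *Nhlh2* were not well above background at E8.5. Their summed signal was 35.4 and 27.1 times the 75th percentile at E8.5, then 169.8 and 114 times at E10.5 on the WT and KO-labelled arrays, and *Stmn2* gave the brightest probe. At E8.5, 2 of 14 measured neuron markers were past 1.5-fold lower on the KO-labelled array, beside 4.94% of genes, and 3 of 14 were above 0. The count lower was 7 without scaling and 9 with spike-in scaling. The 3 largest genotype ratios of the list at E10.5 were *Nefl* (−0.87), *Stmn3* (−0.86) and *Ina* (−0.67), and at E8.5 *Pou4f1* (−1.40), *Nefm* (−1.15) and *Stmn2* (−0.47, within 1.5-fold). These stand beside the lower values of *Robo3* on the same arrays. In RNA of whole embryos fewer cells of a type and less RNA per cell cannot be told apart, and the part of cell composition in the values of *Robo3* and *Ephb2* was not tested.

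Endothelial markers stand beside *Robo4*, *Plxnd1* and *Unc5b*. At E8.5, 8 of 8 were above 0 on the KO-labelled array, but 4 of 8 without scaling and 3 of 8 with spike-in scaling. Past 1.5-fold higher were 2, *Cldn5* (0.89) and *Emcn* (0.61), beside 3.95% of genes. At E10.5, 6 of 8 were below 0, beside 54.2% of genes, or 1 of 8 with spike-in scaling, beside 21.9%. With stage 5 rose and 1 fell in WT, beside 19% and 18.2% of genes. On the KO-labelled arrays 1 marker rose and 2 fell, beside 16.6% and 14.3%. There 4 rose and 1 fell without scaling, and 6 and 0 with spike-in scaling. Their summed signal was 15.3, 20.3, 23.0 and 21.2 times the 75th percentile on the WT E8.5, KO-labelled E8.5, WT E10.5 and KO-labelled E10.5 arrays, with *Kdr* the brightest. *Unc5b* differed from most of these markers, with ratios of −0.20 (KO-labelled to WT, E8.5) and −0.57 (WT, between stages).

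Erythroid genes had the largest median genotype ratios of the marker lists at both stages. Of 9 erythroid genes, 9 were past 1.5-fold higher on the KO-labelled array at E8.5 under every scaling. Scaled to the 75th percentile, 3.95% of protein-coding genes were. The median ratio of the 9 was 4.27, or 3.72 with spike-in scaling. At E10.5, 6 of 9 were higher, beside 2.36% of genes, or 5 without scaling and after quantile normalization, with a median of 1.11. Their summed signal was 15.5 and 326 times the 75th percentile at E8.5, then 1102 and 1301 times at E10.5 on the WT and KO-labelled arrays. The embryonic globin gene *Hbb-y* read 0.15 on the WT and 6.15 on the KO-labelled array at E8.5, a 63.8-fold difference, and was level with 8.44 and 8.47 on those of E10.5. *Gata1* read −4.01 and 0.26 at E8.5, then 0.98 and 2.21 at E10.5, and *Slc4a1* −4.56, 0.54, 2.67 and 3.78 in the same order, so that both were higher on the KO-labelled array also at E10.5, by 2.35-fold and 2.17-fold. *Klf1* was not well above background on the WT E8.5 array. The part of these cell types in the members' values was not tested.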

How the data were processed

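Total RNA of whole embryos was amplified, labelled with Cy3 and hybridised to 1 array per group. The intensity values used were the processed signals that the authors deposited as scanner output of Agilent Feature Extraction (10.7.1.1 per the file headers, 9.5.1.1 in the submitters' processing notes). The deposited value table, whose unit was not stated, held linear values whose log2 equalled quantile-normalized log2 signals within a median of 0.01 and was used as an alternative. The 75th percentile of log2 signal was subtracted from each array, outlier spots were left out and spots of a probe averaged. Probe positions are those of the array annotation (mm9). All 69 symbols were current in RefSeq (GRCm38.p6, names only).

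limma 3.58.1 (R 4.3.3) was fitted with genotype and stage as additive terms and an intensity trend, and p-values were adjusted by Benjamini-Hochberg over all 32289 probes. Tables were made with Python 3.11.15 and pandas 2.3.3. The limma and 1.5-fold steps were run on simulated probes with independent noise of equal spread and no change of the genotype effect with stage. They recovered 200 (limma genotype), 200 (limma stage) and 199 (1.5-fold, E8.5) of 200 changed probes, with 11, 7 and 22 false calls. Noise between embryos and scaling shifts were not simulated, so this checks the steps only and gives no error rate for these arrays. Where 1 of the arrays compared did not pass the background criterion, its value was replaced by the array's lowest passing signal if that was greater, which gives at least N-fold.

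Members and lists were chosen with earlier results of these data known. Named were *Dyrk2*, members past 1.5-fold between genotypes, the 3 largest rises and falls in WT of each class, members with opposed probes and those below background. Remaining members are given by range, for ephrins and plexins between genotypes only and for no class between stages on the KO-labelled arrays. *Slit1*, *Robo1*, *Ntn1*, *Unc5c*, *Sema3f*, *Ephb1*, *Ephb3*, *Ephb4*, *Sema4c*, *Sema4g*, *Sema5a*, *Sema6a*, *Sema6d* and *Dcc* were named after their values were seen. Marker lists are given as counts with fewer genes named than the rule asked for. Erythroid counts and sums are over 9 genes, and 1 listed erythroid gene is not reported here. Alternatives were quantile, spike-in and no scaling, normexp, the deposited table, 2 other filters, probe means, RefSeq naming, a 2-fold threshold and limma without trend, and, added after the data were seen, the brightest RefSeq mRNA probe without a repeat. The number of arrays limits the precision of every value.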

Additional observations from a re-analysis of the deposited data

Results flagged for a closer look

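*Sema3e* and *Sema6b* were singled out because their genotype ratios had opposite signs at the 2 stages, past 1.5-fold at one and by more than 0.33 (log2) at the other. The ratio of KO-labelled to WT array of *Sema3e* went from −0.69 at the earlier stage to 0.37 at the later. That of *Sema6b* went from 0.84 to −0.36. Each value comes from 1 array per group, and the difference between stages was not tested.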

How the results depend on the processing

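The counts of members past 1.5-fold were 7 (E8.5) and 2 (E10.5) between genotypes and 33 (WT) and 28 (KO-labelled) between stages. At a 2-fold threshold they were 0, 1 and, on the KO-labelled arrays between stages, 17. Without scaling the E8.5 count was 12, the member medians were −0.222 (E8.5) and −0.266 (E10.5) between genotypes and 0.399 (WT) and 0.388 (KO-labelled) between stages, and limma called 3 members lower for genotype. With spike-in scaling the E8.5 count was 26 with a median of −0.512, the E10.5 median 0.0274, the KO-labelled stage count 43 with a median of 0.72, and limma called 8 members for stage. After normexp correction the E8.5 count was 2. The WT stage median was 0.393 after quantile normalization and in the deposited table and 0.365 over probe means, against 0.217. Without a filter on dim probes limma called 2 members for genotype. The cause was not tested.

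The stage ratio on the KO-labelled arrays turned to 0.0202 for *Ephb2* and 0.0497 for *Unc5b* with spike-in scaling and to 0.00637 for *Sema4d* over probe means, and that of *Efna3* in WT to 0.0411 on its brightest RefSeq mRNA probe without a repeat, an alternative chosen after seeing the data. The cause was not tested. The other 86 counts and medians stayed within the spot spread or 1.5 times the count. Of the 7 members past 1.5-fold at E8.5, *Epha1* and *Ephb2* kept it after normexp correction, *Ephb2* and *Sema3e* lost it over probe means, and *Epha1* alone kept it under all 7 alternatives in which this was counted. *Ephb2* and *Robo3* kept theirs at E10.5 under the same 7. No replicate pairs could be blocked because each group had 1 array, and the limma genotype estimate was fitted beside a stage term. Dim probes limit *Sema6b*, *Epha3* and *Ntn5*.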

Other observations

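Members that lie near each other in the genome were set side by side, which the choice by symbol did not use. There were 5 pairs of members with brightest probes within 200 kb (mm9), *Dcc* left out. Besides *Robo3* and *Robo4*, these were the 3 pairs among *Efna1*, *Efna3* and *Efna4* on chromosome 3, and *Sema3b* with *Sema3f* on chromosome 9. In WT *Efna1* and *Efna3*, 42.8 kb apart, changed by −0.95 and −0.92 with stage, while *Efna4*, 19.6 kb beyond *Efna3*, changed by −0.06. *Sema3b* and *Sema3f*, 83.1 kb apart, had stage ratios of −0.32 and 0.36 in WT, and were 0.45 and 0.39 higher on the KO-labelled array at E8.5, which turned to −0.10 and −0.16 with spike-in scaling.

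Markers of other tissues of the embryo gave further values of the same 4 arrays. Past 1.5-fold on the KO-labelled array at E8.5 were 1 of 8 neural progenitor genes lower, 1 of 6 neural crest genes higher, 1 of 8 paraxial mesoderm and tail bud genes lower, 1 of 7 heart genes higher and 4 of 7 yolk sac endoderm genes lower. Of decidua and trophoblast genes 6 of 7 on the array were measured there, with 2 higher and 1 lower. With spike-in scaling 0 genes of these lists were higher except 2 of decidua and trophoblast, and the counts lower were 5 of the progenitor, 2 of the crest, 3 of the paraxial, 3 of the heart, 7 of the yolk sac and 2 of the decidua list. At E10.5 the tail bud genes *T* and *Tbx6* had ratios of −1.49 and −1.66, and 0 genes of the progenitor, crest, heart, yolk sac and decidua lists were past 1.5-fold, also with spike-in scaling, while without scaling 1 progenitor and 2 yolk sac genes were lower. The trophoblast gene *Prl3d1* was well above background on the KO-labelled E8.5 array alone, at −2.09.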
